A study of Mus musculus with 6 samples.

Results

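The enzymes and regulators of glycogen synthesis and breakdown are described here as 9 genes: Gys1, Gbe1, Pygl, Ppp1r3c, Ppp1r3b, Epm2a, Stbd1, Pgm2 and Ugp2. They were taken by gene symbol from a table of raw counts, and all 9 were found among its 24421 genes. The genes were proposed with their differences between the 2 groups of this experiment in view, so those differences are given below as a description, with no test. All 9 passed the filter on low counts, which kept 12820 genes.

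Glycogen is a branched store of glucose. Glucose 6-phosphate is turned into glucose 1-phosphate by phosphoglucomutase and into UDP-glucose by UDP-glucose pyrophosphorylase, and glycogen synthase and the branching enzyme build the polymer from it. Glycogen phosphorylase shortens its chains. Protein phosphatase 1, brought to the particle by targeting subunits, activates the synthase and inactivates phosphorylase. In the brain glycogen is held mainly by astrocytes, and neurons keep little of it.

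RNA was sequenced from Neuro2a, a mouse neuroblastoma line with the genotype given as WT in every sample. Cells of the first group received an adenovirus with a short hairpin RNA against Fam172a (ADV-shFam172a, n = 3) and cells of the other an adenovirus with a control hairpin (ADV-shCtrl, n = 3), both for 48 h, so both carry virus. The series concerns how Fam172a acts in diet-induced obesity and, by its title, in neurons that make pro-opiomelanocortin, whereas the cells measured are a single tumour line. Separate infections or days are not stated for the 3 libraries of either group, and the p-values below reflect variation among these libraries alone, some or all of which may be technical.

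Libraries held 21690467 to 23409319 gene counts in shFam172a and 11250312 to 12820531 in shCtrl, so low genes were measured less precisely in shCtrl. Fam172a stood at 9.22, 8.27 and 9.21 CPM (counts scaled to library size) in the shFam172a libraries, against 18.6, 19.3 and 19.5 CPM in the shCtrl libraries (log2 fold change -1.10 ± 0.09, SE; edgeR quasi-likelihood test, adjusted p = 2.4e-12). Rn45s, the ribosomal RNA precursor, stood at 792 to 1140 CPM in shFam172a and 409 to 565 CPM in shCtrl, and its part in the results below was not tested. Marker sums below cover every marker of a list, passed or not, and say little of single markers. Of 12 neuroblastoma and sympathoadrenal markers 11 passed the filter. The sum of the 12 was 2102 to 2150 CPM in shFam172a and 1936 to 1948 CPM in shCtrl. Its largest part was Tubb3, with a mean of 785 CPM in shFam172a and 757 CPM in shCtrl. Of 8 astrocyte markers 2 passed, with a sum of 35.7 to 38.1 CPM in shFam172a and 34.2 to 39.3 CPM in shCtrl. Most of that was Sox9, with a mean of 30.0 CPM in shFam172a and 31.8 CPM in shCtrl, and Aqp4 and Gja1 were at 0 in every library. None of 10 hepatocyte markers passed, with sums of 0.171 to 0.225 CPM in shFam172a and 0 to 0.257 CPM in shCtrl. Of 10 skeletal muscle markers 5 passed, with sums of 10.5 to 13.0 CPM in shFam172a and 10.2 to 12.6 CPM in shCtrl, and Ckm, Myh1, Myh4 and Myod1 were at 0.

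Promoter sequence is shown for the synthase and branching enzyme, which build the polymer, and for the phosphorylase and the targeting subunit Ppp1r3c, which differ from them in the letters searched. Each is read 5′ to 3′ from the 250 bases before the RefSeq start on GRCm38.p6, shortened where an annotated exon begins. Gys1 is chr7:45434589-45434838 on the plus strand, Gbe1 chr16:70313699-70313948 plus, Pygl chr12:70227684-70227933 minus, and Ppp1r3c chr19:36736654-36736854 minus. Capitals mark ACGTG and GCGTG on either strand, so that CACGT and CACGC are the same motifs read on the other strand.
Gys1: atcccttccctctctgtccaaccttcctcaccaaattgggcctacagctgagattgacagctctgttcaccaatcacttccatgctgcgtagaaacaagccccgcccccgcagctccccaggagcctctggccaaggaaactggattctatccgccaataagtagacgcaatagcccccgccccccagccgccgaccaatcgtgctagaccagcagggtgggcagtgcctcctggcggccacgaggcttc
Gbe1: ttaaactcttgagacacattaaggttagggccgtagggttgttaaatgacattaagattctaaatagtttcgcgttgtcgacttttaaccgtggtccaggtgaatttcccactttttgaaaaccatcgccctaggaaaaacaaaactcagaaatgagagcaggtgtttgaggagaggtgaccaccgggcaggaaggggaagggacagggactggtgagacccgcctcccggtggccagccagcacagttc
Pygl: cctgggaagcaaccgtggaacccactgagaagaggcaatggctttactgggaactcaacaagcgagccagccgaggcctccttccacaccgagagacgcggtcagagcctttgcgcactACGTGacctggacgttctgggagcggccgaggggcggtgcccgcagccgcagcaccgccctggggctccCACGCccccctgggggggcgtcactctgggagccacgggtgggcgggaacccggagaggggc
Ppp1r3c: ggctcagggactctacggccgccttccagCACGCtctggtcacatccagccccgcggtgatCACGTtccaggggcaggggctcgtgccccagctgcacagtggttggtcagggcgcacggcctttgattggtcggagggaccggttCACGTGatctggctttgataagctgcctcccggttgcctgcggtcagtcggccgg
ACGTG and GCGTG hold the core letters of the hypoxia response element, and the palindrome CACGTG, which contains ACGTG on both strands, is the E-box bound by many basic helix-loop-helix factors.

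The 4 windows were chosen as a pair with the motifs and a pair without, so that split is not a result. Ppp1r3c held ACGTG 3 times, 2 of them as the palindrome CACGTG, which begins 104 bases before the start, and GCGTG once. Pygl held ACGTG once, 131 bases before the start, and GCGTG once, 62 bases before it. GENCODE M21 places the start of Pygl farther upstream, so that this window lies inside its annotated gene, outside the exons. The Gys1 and Gbe1 windows held neither. Of the members, 7 matched the RefSeq promoter table, with 8 windows because Ugp2 has 2 starts. Ppp1r3b was not matched, and Pgm2 was not looked up because its name is ambiguous (below). In 5 of the 8 windows at least 1 of the motifs was found, against 38.6% of all 32851 windows of the same length in the table. The most were in a window of Ugp2, with 1 ACGTG and 5 GCGTG, and Ugp2 was the member that was lower in shFam172a (below). ACGTG was in 16.6% of all windows, GCGTG in 28.2% and CACGTG in 6.02%. The members' windows had 48.8% to 73.6% G and C, against a median of 52.4% over all windows. Only the Gbe1 window, at 48.8%, lay below that median, and the next lowest was Gys1 at 60%. These matches describe letters and were not tested as binding sites.

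In CPM after scaling, 8 of the 9 genes were higher in all 3 shFam172a libraries than in any shCtrl library, and Ugp2 was lower in all 3. Over all genes tested, 22.5% stood wholly higher and 23.5% wholly lower. A log2 fold change of at least 1 was found in 5 of the 9 genes, against 0.85% of all genes. The median log2 fold change was 1.12 over the 9 genes and 0.00 over all 12820. Because the genes were proposed from this same contrast, nothing is read from these counts. In bulk RNA, fewer cells that express a gene and less RNA of it per cell cannot be told apart.

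**Figure D1:**
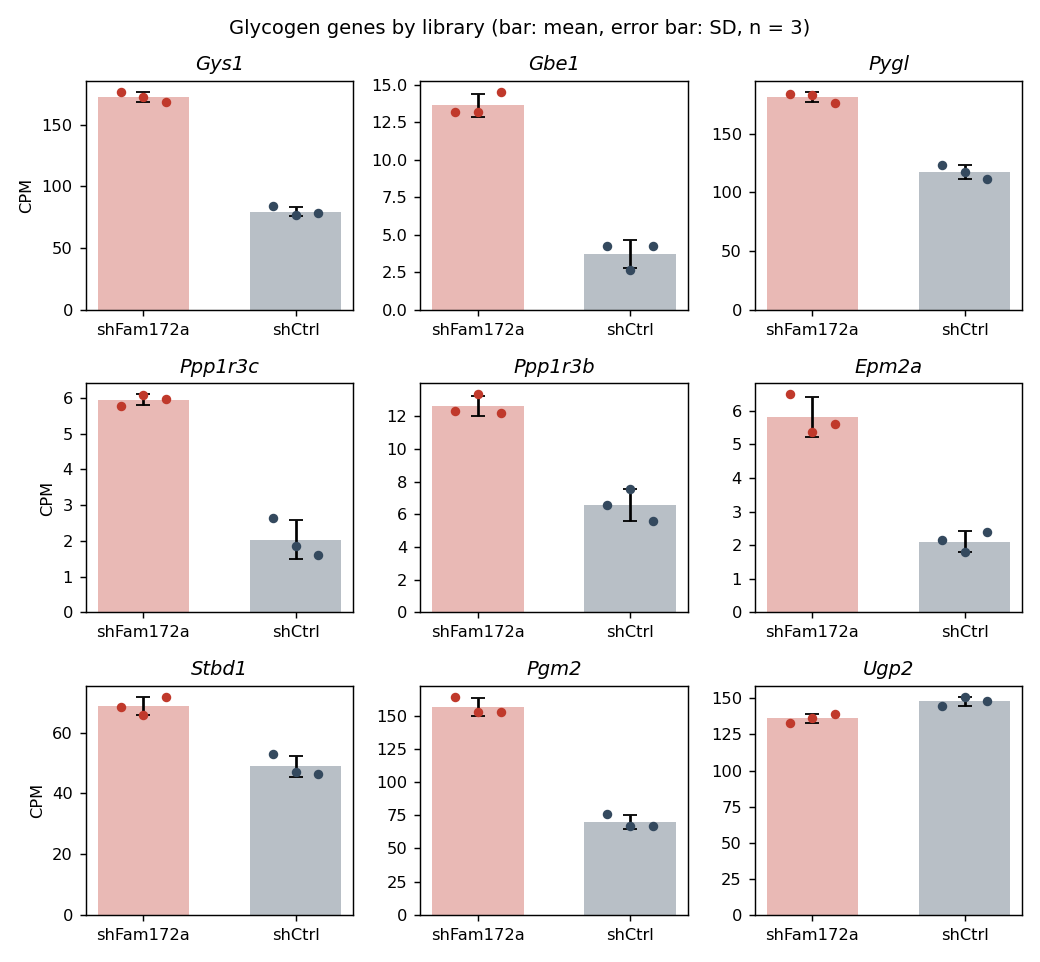
Level of each of the 9 genes in CPM (vertical axes, each from 0) by library, with shFam172a left of shCtrl; points are libraries, bars the mean and error bars the SD of 3. The groups do not overlap in any panel, and Ugp2 is the gene whose shFam172a libraries sit lower.

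Gys1 encodes the glycogen synthase of muscle and most tissues outside liver (ENSMUSG00000003865.16, chromosome 7, 45434844 to 45456619, plus strand, GRCm38, 16 merged exons). It stood at 176, 172 and 169 CPM in the shFam172a libraries, against 83.8, 76.8 and 78.1 CPM in the shCtrl libraries. The lowest shFam172a library lay far above the highest shCtrl library, and the spread within each group was small. The log2 fold change was 1.12 ± 0.04 (SE), or 2.17-fold, which is rank 68 of 12820 from the highest. Gys1 overlaps Ruvbl2 on the opposite strand. Ruvbl2 averaged 110.4 CPM in shFam172a and 102 CPM in shCtrl (log2 fold change 0.11 ± 0.04, adjusted p = 0.018, edgeR). The strand setting of the counting is not given in the sources used here, so reads of the overlap cannot be told apart.

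Gbe1 encodes the branching enzyme, which makes the branch points of the polymer (ENSMUSG00000022707.16, chromosome 16, 70313949 to 70569716, plus strand). It had 285, 307 and 323 counts in the shFam172a libraries, against 50, 34 and 48 counts in the shCtrl libraries. Those are 13.2, 13.2 and 14.5 CPM in shFam172a and 4.28, 2.65 and 4.25 CPM in shCtrl. The groups stood far apart, and shCtrl replicate 2 was the lowest library. The log2 fold change of 1.88 ± 0.14 (SE) was the largest of the 9 genes and rank 13 of 12820. The spread within shCtrl was wider than within shFam172a, with a coefficient of variation of 5.65% in shFam172a and 25.1% in shCtrl. With so few counts in shCtrl, counting error is relatively larger there, and the difference in spread was not tested.

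Pygl encodes the liver isozyme of glycogen phosphorylase, which releases glucose 1-phosphate from the chain ends (ENSMUSG00000021069.17, chromosome 12, 70190811 to 70231488, minus strand). Its level was 184, 183 and 176 CPM in the shFam172a libraries, against 123, 118 and 111 CPM in the shCtrl libraries. Every shFam172a library lay above every shCtrl library, with a smaller gap than for Gys1. Its log2 fold change was 0.63 ± 0.04 (SE), or 1.54-fold, at rank 344.

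Both protein phosphatase 1 targeting subunits among the members were low in level and higher in shFam172a. Ppp1r3c, known as protein targeting to glycogen (chromosome 19, 36731731 to 36736653, minus strand), had 125, 142 and 133 counts in the shFam172a libraries, against 31, 24 and 18 counts in the shCtrl libraries. That is 5.79, 6.09 and 5.98 CPM in shFam172a and 2.66, 1.87 and 1.59 CPM in shCtrl. The shFam172a libraries lay close together and the shCtrl libraries spread widely, with a coefficient of variation of 2.53% in shFam172a and 27.0% in shCtrl. Counting error alone is relatively larger at the lower shCtrl counts, so these spreads are not read as a difference between the groups. The log2 fold change was 1.54 ± 0.18 (SE), at rank 28.

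Ppp1r3b, the subunit best known from liver (chromosome 8, 35375739 to 35388139, plus strand), stood at 12.3, 13.3 and 12.2 CPM in the shFam172a libraries, against 6.60, 7.55 and 5.58 CPM in the shCtrl libraries. The lowest shFam172a library was well above the highest shCtrl library. Its log2 fold change was 0.93 ± 0.12 (SE), or 1.91-fold, at rank 129.

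Epm2a encodes laforin, a phosphatase that removes phosphate from glycogen and whose loss in humans causes Lafora disease (chromosome 10, 11343404 to 11459644, plus strand). It had 140, 125 and 125 counts in the shFam172a libraries, against 25, 23 and 27 counts in the shCtrl libraries. In CPM these were 6.48, 5.36 and 5.62 in shFam172a and 2.14, 1.79 and 2.39 in shCtrl, so the groups were apart although the counts were low. For Epm2a the log2 fold change was 1.47 ± 0.18 (SE), at rank 31. Stbd1 encodes a glycogen-binding protein of membranes that is linked to the delivery of glycogen to lysosomes (chromosome 5, 92603041 to 92606579, plus strand). It stood at 68.4, 65.8 and 71.7 CPM in the shFam172a libraries, against 53.0, 47.1 and 46.5 CPM in the shCtrl libraries. Its log2 fold change, 0.49 ± 0.05 (SE), was the smallest of the 8 genes that were higher in shFam172a.

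The supply of UDP-glucose is represented by Pgm2 and Ugp2, and they differed in direction. The row named Pgm2 stood at 164, 152 and 153 CPM in the shFam172a libraries, against 76.3, 66.9 and 66.7 CPM in the shCtrl libraries, with no overlap. Its log2 fold change was 1.16 ± 0.04 (SE), or 2.24-fold, at rank 62. In mouse annotations the names Pgm1 and Pgm2 were exchanged: the RefSeq table lists each as an older name of the other, and 1109 of the 24421 symbols in the counts are only older names there. Which of the 2 phosphoglucomutase genes this row counts is therefore unsettled, and no position or sequence is given for it. The candidate on chromosome 4 shares exon sequence with Itgb3bp on the opposite strand, which averaged 10.00 CPM in shFam172a and 14.7 CPM in shCtrl (log2 fold change -0.55 ± 0.10, adjusted p = 2.0e-05, edgeR).

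Ugp2 encodes UDP-glucose pyrophosphorylase (chromosome 11, 21321138 to 21371201, minus strand). It stood at 133, 136 and 139 CPM in the shFam172a libraries, against 145, 151 and 148 CPM in the shCtrl libraries. All shFam172a libraries lay below all shCtrl libraries, by a small margin. The log2 fold change was -0.12 ± 0.03 (SE), and with a correction for gene length and GC content it was -0.05. Ugp2 overlaps Gm12043 on the opposite strand.

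**Figure D2:**
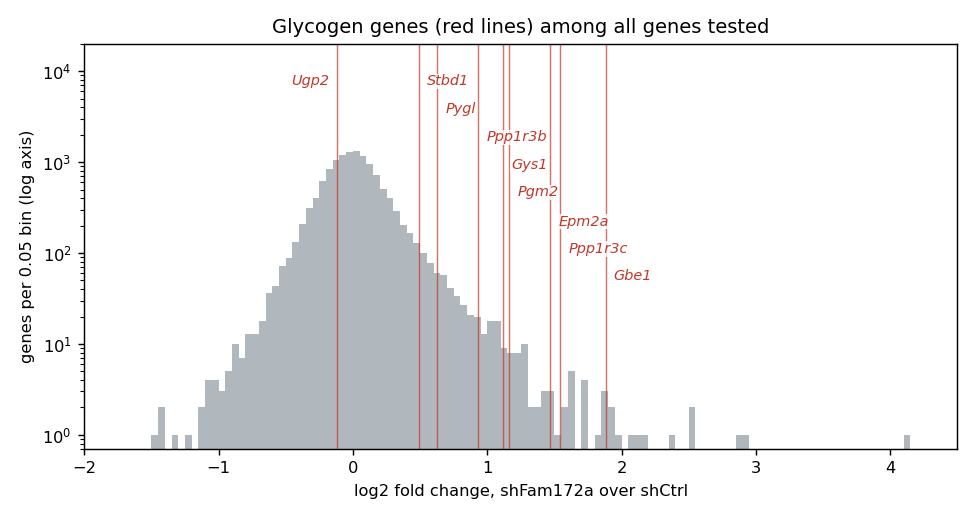
Distribution of log2 fold changes, shFam172a over shCtrl, over the 12820 genes tested (horizontal axis; vertical axis, genes per bin of width 0.05 on a log axis), with red lines and names at the 9 genes. Of these, 8 lie right of 0 and Ugp2 lies left of it, and Gbe1 is farthest right at 1.88.

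Per kilobase of merged annotated exons, which allows levels of different genes to be compared, Ugp2 was the highest of the 8 genes whose length is known in both groups, at 44.4 ± 0.984 CPM per kb in shFam172a and 48.2 ± 1.04 CPM per kb in shCtrl (SD, n = 3). In shFam172a Gys1 came next at 36.0 ± 0.814 CPM per kb, then Stbd1 at 30.9 ± 1.34 and Pygl at 26.3 ± 0.611, with no overlap between neighbours. Gbe1, Ppp1r3c, Ppp1r3b and Epm2a followed at 1.77 to 2.55 CPM per kb, where Ppp1r3b overlapped both Ppp1r3c and Epm2a. In shCtrl Stbd1 at 22.0 ± 1.61 CPM per kb came second, and Pygl at 17.0 ± 0.853 and Gys1 at 16.6 ± 0.781 overlapped. The lowest 4 lay at 0.641 to 1.06 CPM per kb in shCtrl, each overlapping its neighbour. The order depends on the length, most of all for Pygl. By the longest transcript, a setting chosen after seeing the data, Pygl was at 57.5 ± 1.34 CPM per kb in shFam172a, above Ugp2 at 50.7 ± 1.13 and Gys1 at 46.9 ± 1.06, and in shCtrl it was at 37.2 ± 1.87, below Ugp2 at 55.1 ± 1.19 and above Gys1 at 21.6 ± 1.02. By coding length, also chosen then, Ugp2 was highest in both groups, with Gys1 above Pygl in shFam172a and below it in shCtrl. By all 3 lengths, Ugp2, Gys1, Stbd1 and Pygl stood above the other 4 in both groups, while the order among those 4 changed. The Pgm2 row would lie at 53.6 or 60.4 CPM per kb in shFam172a and 23.9 or 27.0 CPM per kb in shCtrl, depending on which gene's length is used.

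**Figure D3:**
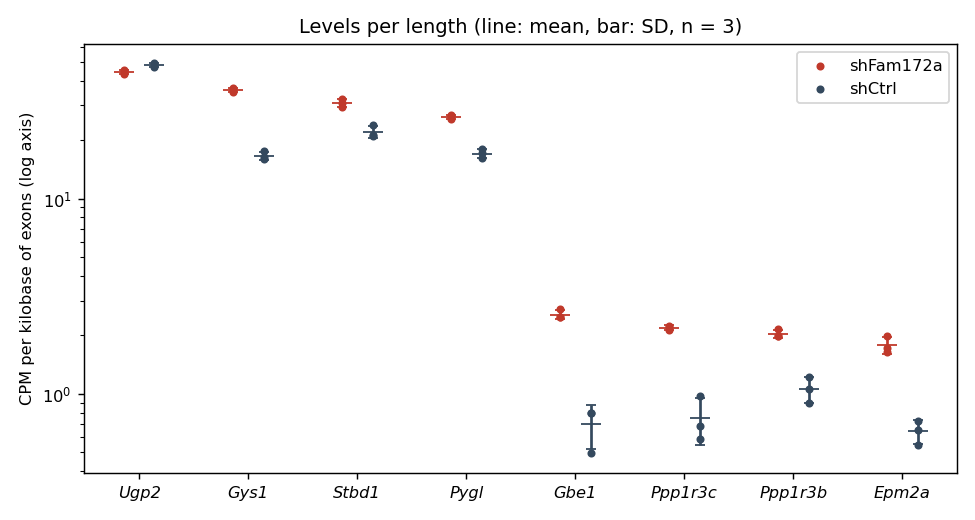
Level per kilobase of merged exon (CPM per kb, log axis) of the 8 genes with a known length, in shFam172a and shCtrl; points are libraries, horizontal lines the mean and error bars the SD of 3. By this length Ugp2 is highest in both groups, and Gbe1, Ppp1r3c, Ppp1r3b and Epm2a form the low end.

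Levels were also compared within each library. Pygl's share of the 3 phosphorylase isozymes per length was 57.6%, 58.4% and 57.2% in the shFam172a libraries, against 46.1%, 45.9% and 44.2% in the shCtrl libraries. The means were 57.7% ± 0.579 in shFam172a and 45.4% ± 1.06 in shCtrl (SD, n = 3), 12.3 percentage points apart, with no overlap. An exact permutation test of 3 against 3 cannot go below p = 0.1, so no test was made. Pygl, Gbe1 and Gys1 were also proposed from this contrast, so nothing is read from gaps in this share or the ratio below. The share itself depends on the gene length used. By the longest transcript it was 70.9% in shFam172a and 59.7% in shCtrl. By coding length it was 66.2% in shFam172a and 54.3% in shCtrl. It was higher in shFam172a by each, but each length is the same in both groups, so this agreement is no separate support. Gys1's share of the 2 glycogen synthase isozymes per length was 100% in every shFam172a library, against 99.6%, 100% and 100% in the shCtrl libraries, since Gys2, the liver isozyme, had 2 counts in shCtrl replicate 1 and 0 elsewhere. Branching enzyme to synthase, the Gbe1 to Gys1 ratio, was 0.0669, 0.0684 and 0.0770 in shFam172a and 0.0457, 0.0309 and 0.0487 in shCtrl, also apart.

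**Figure D4:**
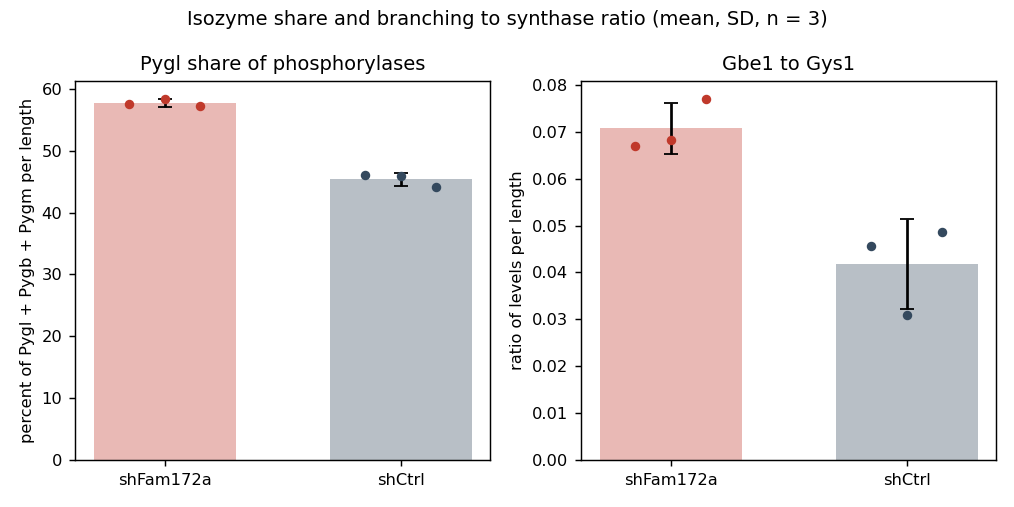
Ratios by library, with shFam172a left of shCtrl: on the left Pygl's share of the phosphorylases (percent, per length), on the right the Gbe1 to Gys1 ratio per length; points are libraries, bars the mean and error bars the SD of 3. Pygl's share is 57.2% to 58.4% in shFam172a and 44.2% to 46.1% in shCtrl.

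The rest of the pathway was taken as a list of 30 names chosen by textbook role, of which 29 were in the table and 22 were tested. Of these 22, 5 rose and 2 fell, where 17.5% of all genes rose and 18.6% fell, or 36.1% in either direction, and 15 did not pass the test, with log2 fold changes from -0.25 to 0.25. Their median log2 fold change was 0.02, against 1.12 over the 9 members. The members were proposed from this contrast and the list holds what remained, so nothing is read from that gap. Slc37a4, which carries glucose 6-phosphate into the endoplasmic reticulum, rose most, to 43.3 ± 2.82 CPM in shFam172a, against 25.2 ± 3.70 CPM in shCtrl (SD, n = 3; log2 fold change 0.78 ± 0.07, SE; adjusted p = 9.7e-11, edgeR).

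Among the kinases, Gsk3b, which phosphorylates and inactivates glycogen synthase, rose to 286 ± 3.13 CPM in shFam172a, against 248 ± 8.65 CPM in shCtrl (log2 fold change 0.20 ± 0.03, adjusted p = 1.5e-06, edgeR). Phkg2, a catalytic subunit of phosphorylase kinase, rose to 13.8 ± 1.02 CPM, against 11.5 ± 1.41 CPM in shCtrl (log2 fold change 0.28 ± 0.10, adjusted p = 0.030). That call was lost without shFam172a replicate 2, shCtrl replicate 2 or shCtrl replicate 3, where the adjusted p was 0.13, 0.23 and 0.077. It was also lost with DESeq2 on all libraries (adjusted p = 0.091). Phkg2 overlaps Ccdc189 on the opposite strand.

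Of the phosphatase 1 genes outside the 9, the targeting subunit Ppp1r3d rose to 6.12 ± 0.960 CPM in shFam172a, against 4.57 ± 0.313 CPM in shCtrl (log2 fold change 0.42 ± 0.15, adjusted p = 0.030, edgeR). Without shFam172a replicate 1, shCtrl replicate 1 or shCtrl replicate 3 its adjusted p was 0.19, 0.097 and 0.077. With DESeq2 on all libraries the Ppp1r3d call was also lost (adjusted p = 0.090). The catalytic subunit Ppp1ca fell to 196 ± 2.82 CPM in shFam172a, against 222 ± 6.09 CPM in shCtrl (log2 fold change -0.18 ± 0.03, adjusted p = 1.2e-05, edgeR). Ppp1cc fell to 209 ± 7.79 CPM, against 221 ± 2.76 CPM in shCtrl (log2 fold change -0.08 ± 0.03, adjusted p = 0.043), and this call was lost under 12 of 14 alternatives, among them leaving out any library other than shFam172a replicate 3 (adjusted p 0.067 to 0.26). The name Ppp1cc was also once given to another gene, Ppp1ccb, so its counts are uncertain.

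Several genes close in role to the members did not pass the test. Pygb, the brain phosphorylase, stood at 90.5 ± 1.73 CPM in shFam172a and 96.5 ± 2.11 CPM in shCtrl (log2 fold change -0.09 ± 0.04, adjusted p = 0.065, edgeR), and with a correction for gene length and GC content it did pass, at -0.13 (adjusted p = 0.0079). Pygm, the muscle phosphorylase, averaged 1.32 CPM in shFam172a and 1.27 CPM in shCtrl. Glycogenin, which primes the polymer and is named Gyg here, stood at 8.53 ± 0.970 CPM in shFam172a and 10.1 ± 0.984 CPM in shCtrl (log2 fold change -0.25 ± 0.12, adjusted p = 0.085), and without shFam172a replicate 3 at -0.34 (adjusted p = 0.030). The row named Pgm1 stood at 37.6 ± 1.32 CPM in shFam172a and 40.0 ± 3.55 CPM in shCtrl (log2 fold change -0.09 ± 0.06, adjusted p = 0.25). Gaa, the lysosomal acid glucosidase, stood at 213 ± 4.83 CPM in shFam172a and 202 ± 13.1 CPM in shCtrl (log2 fold change 0.08 ± 0.04, adjusted p = 0.072), and without shFam172a replicate 1 or shCtrl replicate 1 the adjusted p was 0.042 and 0.0064. It was also under the threshold with upper-quartile scaling, at 0.032, and with no filter, at 0.038. With the correction for gene length and GC content the log2 fold change of Gaa was 0.003 (adjusted p = 0.96, edgeR). Without shCtrl replicate 2 it was 0.03 (adjusted p = 0.59). The call was the same as in the main fit, not passed, under 10 alternatives.

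The 7 listed genes that were not tested had at most 2 counts over the 6 libraries. Ppp1r3a, the muscle targeting subunit, Phka1, and Nhlrc1, which encodes malin, the partner of laforin, had 0 counts in all libraries, which allows up to 0.0291 CPM over the 6 libraries. Gys2 had 0 counts in shFam172a, which allows up to 0.0445 CPM, and 2 counts in shCtrl. G6pc, the liver glucose 6-phosphatase, G6pc2 and Ppp1r3g had 1 count each. These limits, from 3 counts, cover counting error only.

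**Figure D5:**
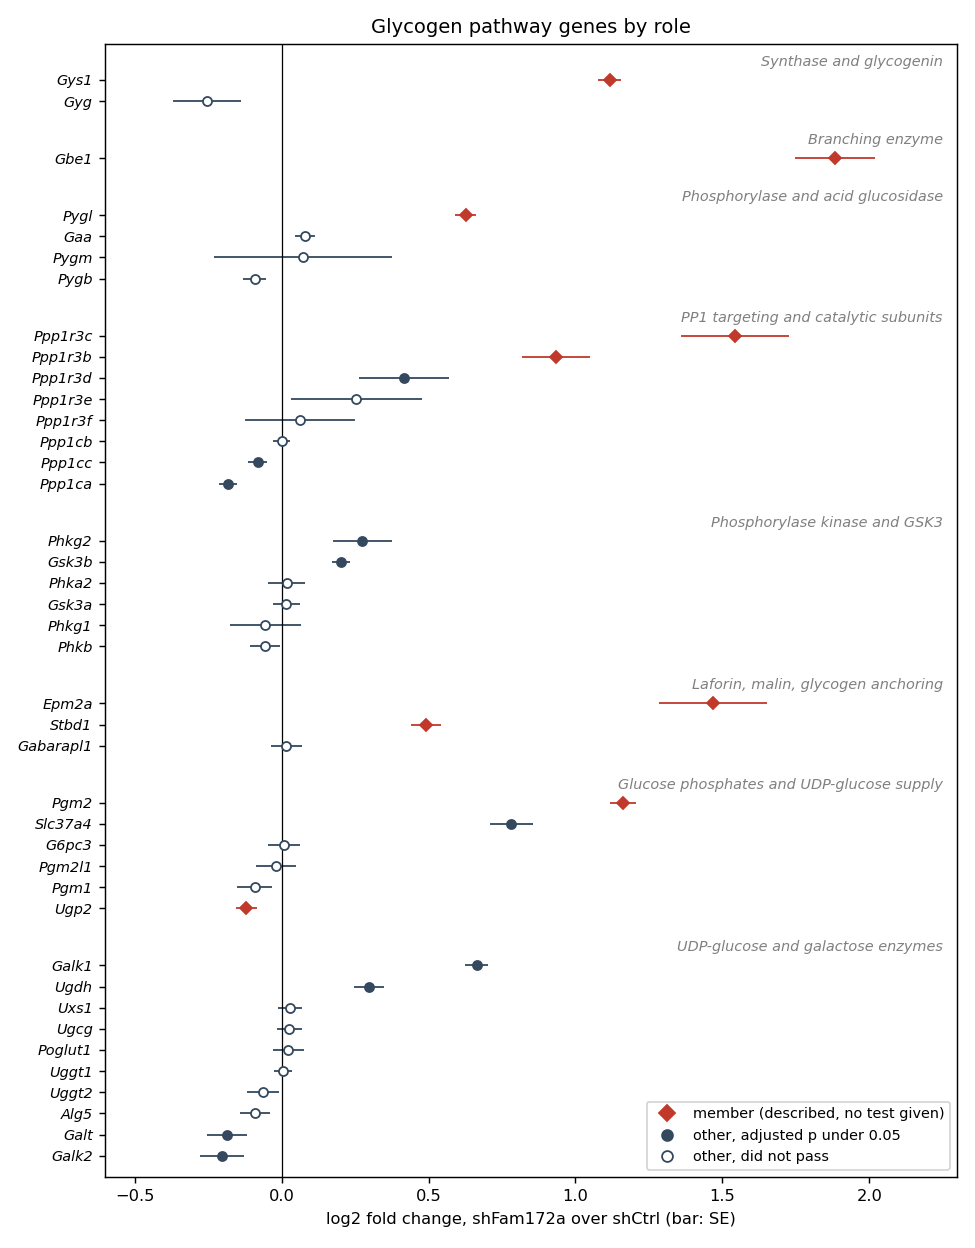
Log2 fold change, shFam172a over shCtrl, with SE, of the 9 genes and of genes tested in the 2 other lists, grouped by role; red diamonds are the 9 genes, given with no test, filled circles are other genes with an adjusted p under 0.05, and open circles those that did not pass. The 9 genes run from -0.12 for Ugp2 to 1.88 for Gbe1, and the largest of the others is Slc37a4 at 0.78.

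The enzymes that use or interconvert UDP-glucose and galactose outside glycogen numbered 11, and all were tested. Of these, 3 rose and 2 fell, against 17.5% and 18.6% of all genes, and 6 did not pass, with log2 fold changes of -0.09 to 0.03 for the last, and the median over the 11 was 0.02. Galk1, galactokinase, rose to 152 ± 6.27 CPM in shFam172a, against 96.2 ± 2.48 CPM in shCtrl (SD, n = 3; log2 fold change 0.66 ± 0.04, adjusted p = 5.6e-17, edgeR). Ugdh, which oxidises UDP-glucose, rose to 73.9 ± 5.81 CPM, against 60.1 ± 2.55 CPM in shCtrl (log2 fold change 0.30 ± 0.05, adjusted p = 1.3e-05). Galt fell to 24.0 ± 1.19 CPM in shFam172a, against 27.3 ± 0.633 CPM in shCtrl (-0.19 ± 0.07, adjusted p = 0.028), and Galk2 to 22.0 ± 1.58 CPM, against 25.4 ± 1.90 CPM in shCtrl (-0.20 ± 0.07, adjusted p = 0.030). The Galt call was lost without shFam172a replicates 2 or 3 or shCtrl replicates 2 or 3 (adjusted p 0.058 to 0.10), and the Galk2 call without shFam172a replicate 1 or shCtrl replicates 2 or 3 (adjusted p 0.085 to 0.19). Both calls were also lost after thinning to equal depth (adjusted p = 0.16 for Galt and 0.055 for Galk2, edgeR). With DESeq2 they were lost too (adjusted p = 0.097 for Galt and 0.094 for Galk2). Galk2 overlaps Cops2 and Fam227b on the opposite strand.

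As a profile, the mean log2 CPM of the 9 genes was 5.35, 5.32 and 5.34 in the shFam172a libraries, against 4.45, 4.26 and 4.29 in the shCtrl libraries. Among 11374 genes with a mean of at least 2 CPM, the 5 with the profile most like it over the 6 libraries were Bnip3, Pdk1, Fam162a, Vegfa and Car12, with Pearson r of 0.9987 to 0.9995, given as a description with no test. The libraries fall into the 2 groups, which also differ in depth, so r follows that split. Bnip3 averaged 639.7 CPM in shFam172a and 212 CPM in shCtrl, and Pdk1 79.9 CPM in shFam172a and 18.4 CPM in shCtrl. The log2 fold changes of the 5 ran from 0.47 for Vegfa to 2.12 for Pdk1.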

How the data were processed

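RNA was sequenced from 3 shFam172a and 3 shCtrl samples of Neuro2a. The authors deposited raw counts per gene symbol, not normalized. Per the submitters' processing notes, the tools were HISAT2 2.0.5 and HTSeq on mm10. The annotation and the strand setting were not given in the sources used here. Rows that name no gene, 35.0% to 37.6% of all counts in shFam172a and 33.5% to 34.5% in shCtrl, were left out. The series table was used, and it was identical to the 6 single-sample tables. shFam172a replicate 3 stands apart from replicates 1 and 2 in its alignment rows.

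Of 24421 genes, 18128 had a count and 12820 passed filterByExpr. After TMM scaling, edgeR 4.0.16 in R 4.3.3 gave the test (robust glmQLFit and glmQLFTest), with group as the term, and a gene was called at a two-sided Benjamini-Hochberg adjusted p under 0.05 over all genes. The script was tested on simulated data. Log2 fold changes are shFam172a over shCtrl, and CPM are scaled counts, mean ± SD of 3. Each SE was derived from the F statistic of the test, as the absolute log2 fold change divided by the square root of F. It is therefore no measure of spread separate from that test. Lengths are merged exons of GENCODE M21 and sequences are from RefSeq, both on GRCm38.

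Members and lists were chosen with earlier results of these data known. Some listed genes are counted but not reported by name here. By rule, the genes named with values are the 9 members, genes of the 2 lists that passed the filter, Fam172a, and the 5 genes whose log2 CPM (prior count 2) correlated best with the members' mean. Outside it, list genes too low to test, overlapping genes, Rn45s, markers at 0, Tubb3 and Sox9 are named, with the data in view. Alternatives were RLE (the size factors of DESeq2) and upper-quartile scaling, no filter, a mean of at least 50 counts, a replicate block, thinning to 11250312 counts, a length and GC correction over 12753 genes, DESeq2 1.42.0, leaving out each library, and, for ratios and levels per length, the longest transcript and coding length.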

Additional observations from a re-analysis of the deposited data

How the results depend on the processing

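Under the 14 alternatives for the fit, every member kept its direction. The length and GC correction left the Pgm2 row uncorrected, since its gene is unsettled, so for Pgm2 that alternative says nothing. On the log2 scale Epm2a ranged from 1.36 to 1.57, Ppp1r3c from 1.41 to 1.77 and Gys1 from 1.07 to 1.16, and Ugp2 was -0.05 under the length and GC correction. The median over all genes moved by at most 0.02. Of the other glycogen genes, 2 were called lower, and 1 under RLE, upper-quartile scaling, no filter, a mean of at least 50 counts, the replicate block and DESeq2, and 1 to 3 without single libraries. Those called higher were 5, with 6 under upper-quartile scaling and no filter, 3 under DESeq2, and 3 to 5 without single libraries, the 3 being without shCtrl replicate 3. Of the UDP-glucose and galactose enzymes, 2 were called lower, and 0 under thinning and DESeq2, and 0 to 2 without single libraries. Pygm, with a log2 fold change of 0.07, ran from -0.090 to 0.38 without single libraries. The groups' Pygl shares were 11.2 percentage points apart by longest transcript (70.9% in shFam172a and 59.7% in shCtrl), against 12.3 by merged exons (57.7% in shFam172a and 45.4% in shCtrl). For the Pygl shares the counts were the same and only the gene lengths differed. The cause of the other changes was not tested. Same-numbered libraries did not deviate together over all genes (r from -0.0096 to -0.0038, and 0 of 3 libraries closest to their own number). A shared infection or day that touched few genes could be missed by this, so pairing is not excluded. With the replicate block, 2150 genes were called higher and 2318 lower, against 2241 and 2386 without it, and the members' median stayed at 1.12. The shallower shCtrl libraries limit the precision of Gbe1, Ppp1r3c and Epm2a, which had 18 to 50 counts there.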
